A study of Trichoderma reesei with 11 samples.

Results

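The 57 genes described here were expressed in Trichoderma reesei mycelium in constant darkness and were at least 5-fold lower in constant light, both in a parent strain and in a strain that lacks the kinase TR_57513. They were chosen by their measured levels, from 10879 gene IDs in the count table. The level is CPM, the count of a gene divided by the total of its library and scaled to 1000000, with 0.5 CPM added to each group mean. A gene was taken when its mean in darkness was at least 10 CPM in both strains, when its mean in light was at most 0.2 of that in darkness in both strains (a fall of at least 5-fold), and when the dark mean of the deletion strain was 0.667 to 1.5 times that of the parent. The first and last 20 IDs of each of the 7 lettered ID series were left out, which left 10596 eligible IDs. The fall in light and the likeness of the strains in darkness are therefore the choice itself, not findings, and are described below without a test.

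Trichoderma reesei is a filamentous fungus known for the cellulases it secretes. All strains here derive from QM6a without mus53, a deletion of a DNA end-joining gene that favours targeted gene replacement and that both strains carry. The second strain additionally lacked TR_57513, named in the series title as the MAPKKK, the first kinase of the 3-kinase relay, of the HOG pathway. Mycelium was grown for 96 h at 28 °C in minimal medium with cellulose as the carbon source. The groups were the parent in darkness (2 libraries), the parent in light (3 libraries), the deletion strain in darkness (3 libraries) and the deletion strain in light (3 libraries). The labels do not say how many independent transformants the deletion strain stands for, or whether replicates came from separate cultures.

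As background, fungi sense blue light through photoreceptor complexes of the White Collar type, and in Trichoderma reesei light is known to modulate the formation of plant cell wall degrading enzymes as well as development. The HOG pathway, worked out in Saccharomyces cerevisiae, relays osmotic stress through a MAPKKK, a MAPKK and a MAPK. In Aspergillus nidulans and Neurospora crassa it is also known to take part in responses to light. The files do not pair the gene IDs with names, and none of the IDs matched the reference gene table, so no role can be given to any of the 57 genes. For the same reason the deleted gene was not looked up, and the strain labels were not checked against its level.

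Library totals were 13790024 to 18278047 counts in darkness and 8020351 to 10184280 in light. In the labels, the alignments of dark and of light libraries are numbered in distinct runs, so light cannot be told apart from a library batch in any light comparison below. Comparisons of the strains within light lie inside a single run of these numbers, which does not name a sequencing batch. Deletion replicate 1 in darkness stood apart from the other dark libraries of its strain, and parent replicate 1 in light was lower than the other libraries of its group for many of the 57 genes. The numbers of genes that met the rule or passed a test are given with and without single libraries. Values of single genes use all libraries unless stated. In RNA from whole mycelium, fewer cells that express a gene and less RNA per cell cannot be told apart.

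Together the 57 genes held a sizeable share of the counts in darkness and very little in light. They made up 3.22% and 3.08% of all counts in the parent libraries in darkness and 2.95%, 3.62% and 4.15% in those of the deletion strain. In light they made up 0.105%, 0.194% and 0.234% in the parent and 0.12%, 0.117% and 0.121% in the deletion strain. The summed level of every light library was below that of every dark library. The 3 light libraries of the deletion strain lay close together, whereas parent replicate 1 was the lowest of its group. Much of that difference came from TrA0929W, without which the sums in the parent in light were 749, 956 and 1030 CPM.

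**Figure D1:**
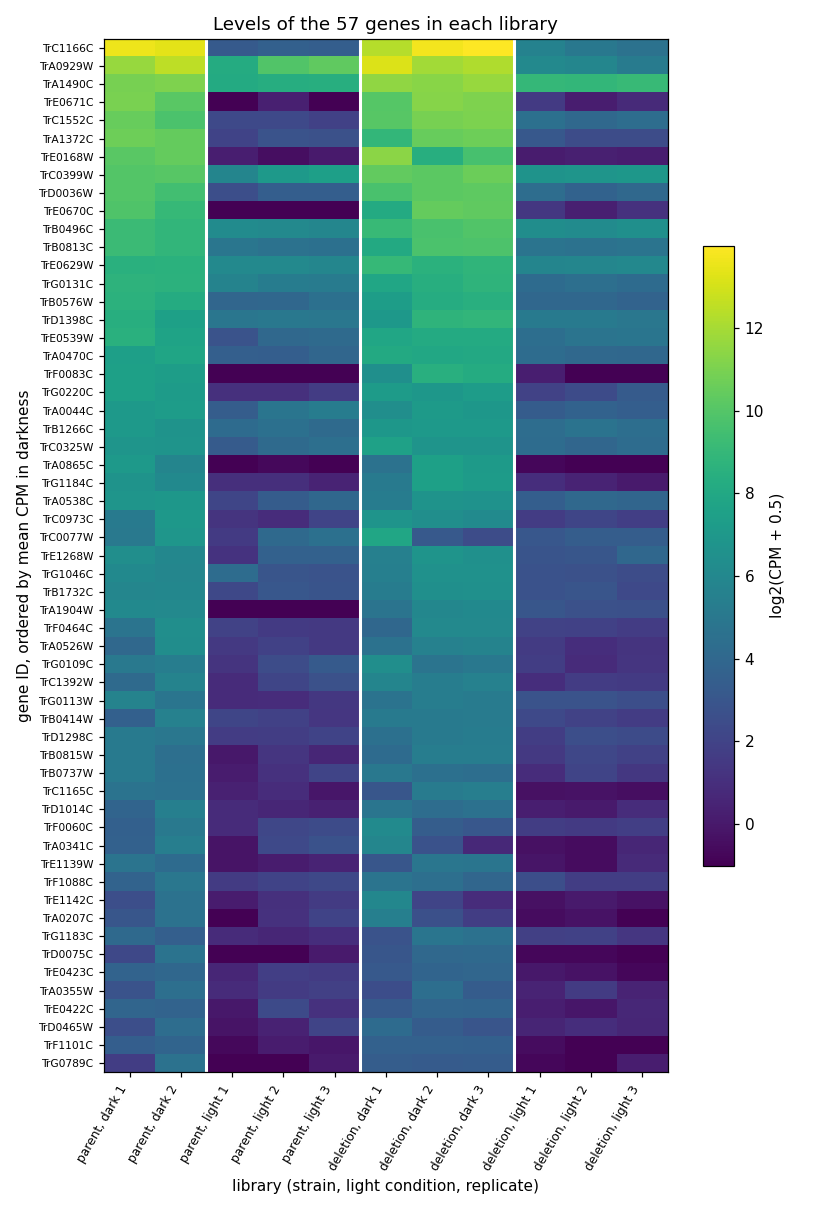
Heat map of the 57 genes (vertical axis, ordered by mean CPM in darkness) in the 11 libraries (horizontal axis, grouped by strain and light condition, with white lines between groups), coloured by log2(CPM + 0.5). Light libraries are darker in colour than the dark libraries of the same strain, except for TrC0077W in the deletion strain, and deletion replicate 1 in darkness differs from replicates 2 and 3 in many genes, in both directions.

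The dark levels spanned a wide range. The mean of both dark group means had a median of 77.0 CPM over the 57 genes and ran from 11.8 to 11735 CPM, against a median of 59.6 CPM over the 5420 eligible IDs that met the conditions on darkness. In all, 24 genes lay under 50 CPM, 21 between 50 and 500 CPM, and 12 at 500 CPM or more. The 5 genes with the highest dark CPM supplied 66.1% to 69.0% of the summed level in each dark library. CPM is not corrected for gene length, so it gives a gene's share of counts and does not rank transcripts between genes.

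TrC1166C held the largest share of counts in darkness. It stood at 12536 and 10821 CPM in the parent libraries and at 5234, 13826 and 16317 CPM in the deletion libraries in darkness. In light it fell to 8.98, 11.6 and 10.6 CPM in the parent and to 49.1, 31.4 and 25.0 CPM in the deletion strain. Every light library was below every dark library of the same strain. The ratio of the group means was 1072-fold in the parent and 331-fold in the deletion strain.

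TrA0929W was second in darkness and kept the highest light level of the 57 genes in the parent. It had 3332 and 5845 CPM in the parent in darkness and 298, 981 and 1314 CPM in light. In the deletion strain it had 9250, 3839 and 4755 CPM in darkness but 67.4, 57.3 and 37.8 CPM in light. The parent therefore met the 5-fold limit only narrowly, at 5.31-fold, while the deletion strain fell 109-fold.

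The deepest falls, relative to darkness and pooled over both strains, were those of TrE0168W and TrE0671C. TrE0168W had 1148 and 1406 CPM in the parent and 2719, 340 and 790 CPM in the deletion strain in darkness. It had 13 counts in the 3 parent libraries in light and 19 in those of the deletion strain, or 0.249 to 0.699 and 0.589 to 0.770 CPM. TrE0671C had 2006 and 1155 CPM in the parent and 1044, 2490 and 2158 CPM in the deletion strain in darkness. Its light levels were 0, 0.748 and 0 CPM in the parent and 2.45, 0.660 and 1.23 CPM in the deletion strain. For both genes each light library was below 3 CPM and each dark library above 300.

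Some genes reached the limit of detection in light. TrA1904W, TrE0670C and TrF0083C had 0 counts in all 3 parent libraries in light, where a count of 0 allows a level of up to 0.118 CPM over the group (3 counts, covering counting error only). TrE0670C, at 928 and 529 CPM in the parent in darkness, was thus at least 6222-fold lower in light. TrF0083C was at least 1470-fold and TrA1904W at least 580-fold lower. None of the 57 genes was at 0 counts in all 3 deletion libraries in light. TrA0865C, with 137 and 55.9 CPM in the parent and 24.6, 184 and 146 CPM in the deletion strain in darkness, had 1 count in each light group, a ratio of 2487 (95% counting interval 446 to 98251) in the parent and of 3193 (573 to 126150) in the deletion strain. TrA0865C, TrE0670C and TrF0083C were singled out after their values were seen.

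The sizes of the falls were set side by side for the strains. The ratio of light to dark means, offset included, had a median of 0.0863 in the parent and 0.0662 in the deletion strain, which correspond to falls of 11.6-fold and 15.1-fold. Over the 5420 IDs that met the conditions on darkness, the same medians were 1.12 and 1.18. The ratio was at most 0.1 for 29 genes in the parent and 38 in the deletion strain, and at most 0.02 for 11 genes in each strain, 9 of them shared. The strains' ratios differed by less than 2-fold for 39 of the 57 genes. The same share was not counted over the 5420 IDs, so no particular likeness is read from it. Of the others, 8 had the lower ratio in the parent and 10 in the deletion strain.

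**Figure D2:**
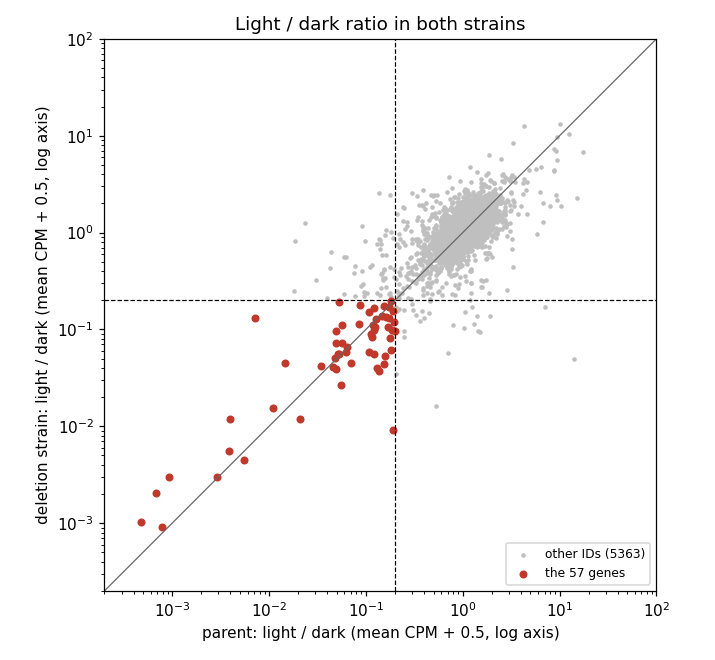
Ratio of light to dark mean level (CPM + 0.5) in the parent (horizontal log axis) and in the deletion strain (vertical log axis) for the 5420 IDs that met the conditions on darkness, with the 57 genes in red, the limits of 0.2 dashed and equal ratios as a solid line. The red points lie below both limits by construction and spread along the line of equal ratios down to about 0.001, with TrA1904W far to the upper left and TrA0929W at the lower right of the group.

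At the limit itself, TrE0422C and TrF1088C were the last genes to qualify. TrE0422C had ratios of 0.199 in the parent and 0.0963 in the deletion strain, and TrF1088C 0.180 and 0.195. Just outside lay TrB0705C, with 0.205 and 0.0348, and TrD0041W, with 0.207 and 0.171. A further 53 IDs met the limit in the parent and not in the deletion strain, with a median ratio of 0.420 in the deletion strain. The reverse held for 29 IDs, whose median ratio in the parent was 0.460. Another 114 IDs met both light limits and the dark level but not the condition on the strains in darkness, 84 because the deletion strain was higher and 30 because it was lower.

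Replicate spread was set against the fall library by library. In the parent, every light library was below every dark library for all 57 genes, a pattern found in 23.3% of the 9040 IDs tested. In the deletion strain this held for 56 genes, against 21.2% of the IDs tested. The rule used these contrasts, so nothing is read from the counts. The exception was TrC0077W, with 233, 8.55 and 5.08 CPM in the deletion strain in darkness and 7.95, 10.0 and 10.4 CPM in light. Its mean in darkness, and with it its place among the 57 genes, rested on deletion replicate 1.

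A stricter reading asked every light library to be at most 0.2 of every dark library of its strain. It was met by 25 of the 57 genes, 20 of the 25 with a dark mean of at least 100 CPM and 5 of the 32 below that. Among the genes that met it was TrA0470C, at 176 and 223 CPM in the parent and 271, 256 and 263 CPM in the deletion strain in darkness. TrA0470C had 11, 10.8 and 14.8 CPM in light in the parent and 19.0, 16.4 and 15.6 CPM in the deletion strain. It was picked after the values were seen, as a gene whose replicates lay close together in all 4 groups.

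Dark replicates differed widely for many of these genes. Deletion replicate 1 in darkness was at or below 0.5 times the mean of replicates 2 and 3 for 23 of the 57 genes (40.4%) and at or above 2 times that mean for 9 (15.8%). Over the 5420 IDs that met the conditions on darkness, the shares were 1.85% and 3.03%. The 9 high genes were TrA0207C, TrA0341C, TrA0929W, TrC0077W, TrD0465W, TrE0168W, TrE1142C, TrF0060C and TrG0109C, and their median dark mean was 26.1 CPM. The 23 low genes included TrC1166C, TrE0670C and TrE0671C and had a median dark mean of 77.0 CPM. No test was made of these shares, since the level in darkness was part of the choice.

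The widest spread within a dark group was that of TrA0341C, 51.2-fold in the deletion strain. Its dark libraries there had 59.4, 6.37 and 1.16 CPM, against 12.1 and 42.0 CPM in the parent. In light it had 0.350, 4.49 and 6.27 CPM in the parent and 0.295, 0.220 and 1.01 CPM in the deletion strain. The lowest dark library of the deletion strain was thus just above its highest light library.

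The parent dark libraries differed along with deletion replicate 1. All 9 genes that were high in deletion replicate 1 were higher in parent replicate 2 than in parent replicate 1, and of the 23 low genes 6 were. Across the 57 genes, the log2 ratio of parent replicate 2 to replicate 1 and the log2 ratio of deletion replicate 1 to the mean of the others had a Pearson r of 0.53 and a Spearman rho of 0.55. The values were r = 0.58 and rho = 0.47 across the 5420 IDs. These are descriptions across genes, which are not independent replicates and share the same 5 libraries. Of the 9 high genes, 8 were also lowest in parent replicate 1 in light, against 32 of all 57 genes and 32.9% of the 5420 IDs.

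**Figure D3:**
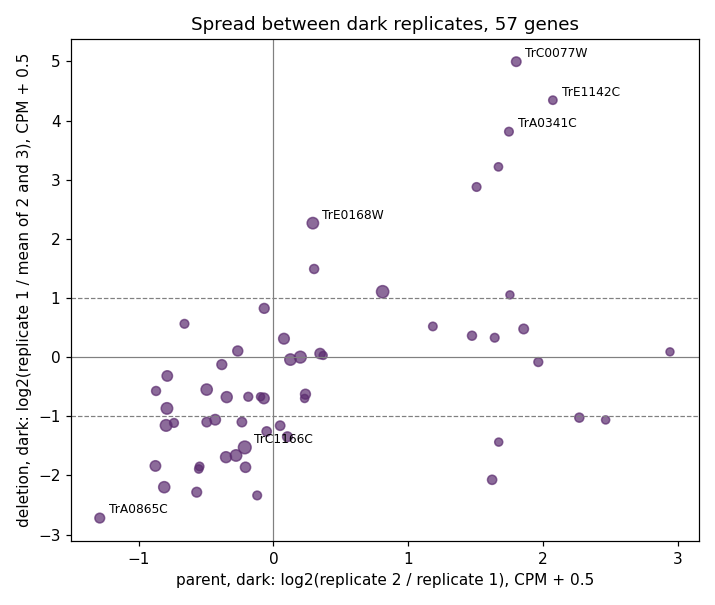
Each point is a gene of the 57; the horizontal axis is the log2 ratio of parent replicate 2 to replicate 1 in darkness and the vertical axis the log2 ratio of deletion replicate 1 to the mean of replicates 2 and 3 in darkness (CPM + 0.5), with larger points for higher dark means and dashed lines at 2-fold. TrC0077W, TrE1142C and TrA0341C lie at the upper right, and TrC1166C and TrA0865C at the lower left.

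Leaving out 1 of 3 dark libraries changed membership most among the single omissions. Of the 57 genes, 39 still met the rule with deletion replicate 1 in darkness left out, 36 with dark parent replicate 1 left out and 38 with dark parent replicate 2 left out. Without any other single library, 46 to 57 still met it. Of the 9 genes high in deletion replicate 1 in darkness, 2 kept their place without that library, as did 15 of the 23 low genes. TrA0207C, TrA0341C, TrC0077W, TrD0465W, TrE1142C and TrF0060C then fell under the dark level. TrE0168W, TrA0865C, TrF0083C, TrC1552C and TrE0670C were lost through the dark strain ratio. Most of the genes lost without deletion replicate 1 still met both light limits (13 of 18), as did 20 of the 21 lost without parent replicate 1 in darkness, whereas 6 of the 19 lost without parent replicate 2 in darkness did. In all 11 omissions 16 genes kept their place, with dark means from 12.1 to 11735 CPM.

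The rule did not set the ratio of the strains in light, which asks whether the shut-off state itself differed without TR_57513. It did narrow that ratio, since IDs that met the light limit only in the parent (53) or only in the deletion strain (29) were left out. Most of the genes did not pass this test. In edgeR's quasi-likelihood test over 9040 IDs, 6 of the 57 genes were higher in the deletion strain in light and 4 lower at an adjusted p under 0.05, or 10.5% and 7.02%, against 13.9% and 13.1% of all IDs tested. Neither share was above that background, which was not chosen by the rule, so nothing about the set is read from the comparison. The median log2 fold change was 0.02 over the 57 genes, where the median over all IDs was set to about 0 by the scaling, and 29 of the 57 values were positive. Light libraries of the strains did not overlap for 13 genes that were higher in the deletion strain and 6 that were lower, against 31.4% and 19.1% of all IDs tested. Low counts limit this test, since 46 of the 57 genes had at least 10 counts in each light group.

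The genes that were higher without TR_57513 were TrA1904W, TrC1552C, TrG0113W, TrC1166C, TrG0220C and TrA1490C. TrA1904W went from 0 counts in the parent to 7.46, 6.05 and 5.71 CPM in the other strain, which is at least 54.6-fold higher when the parent group is set to 3 counts in all (edgeR adjusted p = 0.000851, and 9.86e-10 to 0.0358 over the alternatives). TrC1552C went from 4.55, 4.36 and 3.31 CPM in the parent to 23.0, 16.2 and 19.8 CPM (log2 fold change 2.19, SE 0.30, edgeR adjusted p = 0.000942, and 5.36e-11 to 0.0413 over the alternatives). In both genes each deletion library exceeded each parent library, and each strain remained far below its dark level, which for TrC1552C was 1163 ± 440 CPM (SD, n = 2) without and 1715 ± 536 CPM (SD, n = 3) with the deletion of TR_57513.

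The other 4 increases were smaller. TrG0113W went from 1.61 ± 0.49 to 6.33 ± 0.63 CPM (SD, n = 3 each, log2 fold change 1.88, edgeR adjusted p = 0.00239). TrC1166C went from 10.4 ± 1.32 to 35.1 ± 12.5 CPM (log2 fold change 1.67, edgeR adjusted p = 0.0144). TrG0220C went from 1.96 ± 0.58 to 5.82 ± 3.0 CPM and TrA1490C from 317 ± 30.3 to 512 ± 24.6 CPM (log2 fold changes 1.47 and 0.61, edgeR adjusted p = 0.0201 and 0.00855). All 4 had groups that did not overlap.

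The genes that were lower without TR_57513 in light were TrA0929W, TrE0423C, TrA0044C and TrG0131C. TrA0929W fell from 864 ± 518 to 54.1 ± 15.1 CPM (SD, n = 3 each), with the libraries given above and no overlap (log2 fold change -4.08, SE 0.62, edgeR adjusted p = 0.00184, and 1.41e-14 to 0.0149 over the alternatives). TrE0423C had 1.05, 2.99 and 2.51 CPM in the parent and 0.491, 0.330 and 0.112 CPM in the deletion strain (log2 fold change -2.82, SE 0.54, edgeR adjusted p = 0.00507). It rested on 55 and 9 counts, and missed the threshold with voom (limma adjusted p = 0.0575, the highest among its alternatives).

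TrG0131C went from 51.5, 39.2 and 37.4 CPM to 18.7, 21.3 and 18.3 CPM (log2 fold change -1.22, edgeR adjusted p = 0.0025). TrA0044C had 10.4, 28.3 and 39.0 CPM in the parent and 9.72, 12.8 and 10.8 CPM in the deletion strain (log2 fold change -1.31, edgeR adjusted p = 0.0436), and its groups overlapped in parent replicate 1. Without parent replicate 1 in light, 7 of the 57 genes were called lower, the 4 above among them. These 4 were also all called without deletion replicate 1 in darkness. Each other single omission kept 3 of the 4. TrA0929W and TrE0423C passed in every single omission, so the gene lost was TrA0044C or TrG0131C. With DESeq2, 11 genes were called higher and 6 lower, and with voom 3 and 2.

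**Figure D4:**
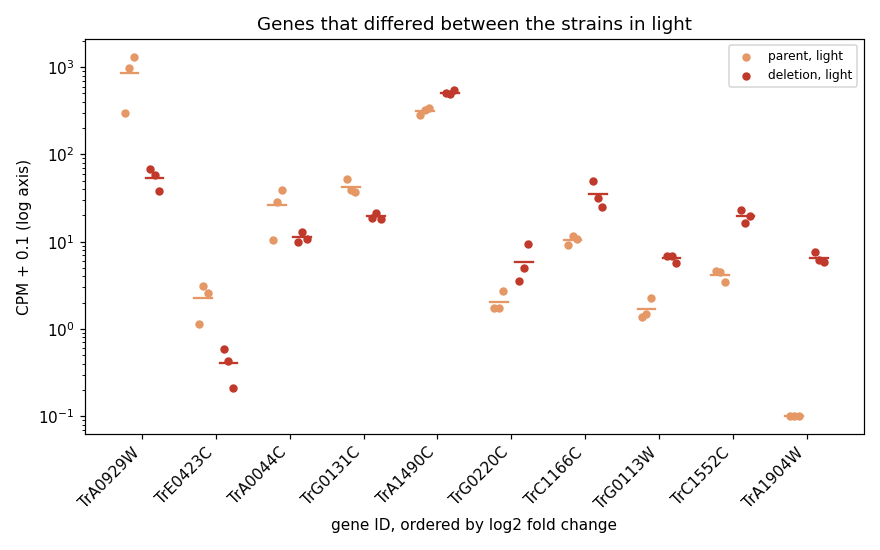
Levels in light (CPM + 0.1, log axis) of the 10 genes that differed between the strains in light, with a point for each library and a bar for the mean of the 3 libraries, the parent in orange and the deletion strain in red. Points of the strains overlap for TrA0044C alone, and the 3 parent points of TrA1904W lie at 0 counts.

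Whether a gene fell further in one strain than in the other was asked by the interaction of light and genotype. It passed for 3 genes with a shallower fall in the deletion strain (5.26%, against 5.37% of all IDs tested) and for 2 with a deeper fall there (3.51%, against 5.42%), in edgeR's quasi-likelihood test. These shares were near the background. The rule kept only IDs that met both light limits and the dark strain ratio. The background was not chosen so, and nothing is read from the likeness of the shares. The shallower falls were those of TrA1904W, TrG0113W and TrC1552C, and the deeper ones those of TrA0929W and TrE0423C, all of them also called in light.

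TrA1904W showed the largest of these differences. It had 69.7 and 67.3 CPM in the parent and 26.6, 60.5 and 67.9 CPM in the deletion strain in darkness, and fell to 0 counts in the parent and to 6.41 ± 0.93 CPM (SD, n = 3) without TR_57513. The interaction had an edgeR adjusted p of 0.0035, and 1.83e-09 to 0.0513 over the alternatives. Its fitted size depends on the prior count and is no bound.

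TrG0113W had 51.5 and 27.9 CPM in the parent and 26.2, 40.5 and 37.7 CPM in the deletion strain in darkness. It fell to 1.28, 1.37 and 2.17 CPM in the parent and to 6.68, 6.71 and 5.60 CPM in the deletion strain, or 19.1-fold and 5.17-fold. The log2 interaction was 2.11 (SE 0.40, edgeR adjusted p = 0.0117, and 0.000151 to 0.117 over the alternatives). For TrC1552C, which fell 254-fold and 85.1-fold, it was 1.66 (SE 0.40, edgeR adjusted p = 0.0322). TrC1552C missed the threshold without parent replicate 1 or deletion replicate 2 in darkness. The same held without any single parent library in light, and without deletion replicate 1 or 3 in light. With a replicate block and with voom it was not called either.

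The 2 deeper falls also missed the threshold under some alternatives. For TrA0929W the log2 interaction was -4.43 (SE 0.88, edgeR adjusted p = 0.0147), and without parent replicate 1 in darkness it missed the threshold (edgeR adjusted p = 0.0948, the highest among its alternatives). For TrE0423C it was -2.60 (SE 0.67, edgeR adjusted p = 0.0387), and it missed the threshold in 11 of 20 alternatives, with adjusted p from 0.00404 to 0.133. Among these were 9 omissions of a single library, namely each dark library except deletion replicate 1 and each light library except parent replicate 1. Without deletion replicate 1 in darkness, 5 genes had a shallower and 5 a deeper fall in the deletion strain. The number of deeper falls was 0 without parent replicate 1 in darkness, where 3 had an unadjusted p under 0.05 in edgeR, 4 without parent replicate 1 in light, and 1 when any of the other libraries was left out.

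The serial numbers of the IDs were not used in the choice, apart from the ends of the series. Whether consecutive numbers lie next to each other on a chromosome is not given in the sources used here. The 57 genes were spread over all 7 series, from 8 of 1937 eligible IDs in series B (0.413%) to 10 of 1267 in series E (0.789%), against 0.538% over all. IDs end in C or W, and 37 of the 57 genes (64.9%) ended in C, against 50.6% of the eligible IDs. No test was made of these shares.

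Some of the genes were serial neighbours. Of the 114 places directly before or after the 57 genes, 8 were held by another of the 57 (7.02%), while 0.538% of the eligible IDs belonged to them. They formed 4 pairs, TrC1165C with TrC1166C, TrE0422C with TrE0423C, TrE0670C with TrE0671C and TrG1183C with TrG1184C, and no longer run. Both IDs of each pair ended in C. The pairs were formed with all libraries. Without deletion replicate 1 in darkness, the dark means of TrC1165C, TrE0670C, TrG1183C and TrG1184C in the deletion strain exceeded 1.5 times those of the parent. Of the 4 pairs, only TrE0422C with TrE0423C then kept both IDs within the rule. A further 3 pairs lay 2 to 4 numbers apart, TrB0813C with TrB0815W, TrE1139W with TrE1142C and TrG0109C with TrG0113W.

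The pairs differed in how alike their members were. TrE0670C, at 928 and 529 CPM in the parent and 290, 1376 and 1292 CPM in the deletion strain in darkness, stood at 0.278 to 0.599 of the level of TrE0671C over the 5 dark libraries. TrE0422C, with 14 and 13.1 CPM in the parent and 8.81, 14.6 and 14 CPM in the deletion strain in darkness, was close to TrE0423C in each dark library. TrG1184C, at 102 and 68.7 CPM in the parent and 34.1, 186 and 150 CPM in the deletion strain in darkness, fell 47.5-fold and 84.1-fold. TrG1183C, at 16.7 and 11.2 and at 6.67, 28.1 and 24.1 CPM, fell 8.23-fold and 6.06-fold.

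TrC1165C stood far below its abundant neighbour TrC1166C. It had 25.3 and 23.3 CPM in the parent and 7.5, 37.4 and 42.4 CPM in the deletion strain in darkness, 0.143% to 0.271% of the level of TrC1166C in the same library. In light it was 0.60% to 11.8% of that level. How reads matching more than a single gene were counted is not given in the sources used here, so a share of such reads in the level of TrC1165C was not tested.

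Some IDs beside the 57 genes were lower in light as well. Of 105 neighbours outside the group, 53 had dark levels of at least 10 CPM. Of these, 13 (24.5%) were at or below 0.5 of their dark level in both strains. The same held for 342 of the 6298 eligible IDs outside the 57 at such levels (5.43%), from which the neighbours were not removed. The 53 neighbours had median ratios of light to dark of 0.740 in the parent and 0.821 in the deletion strain, against 1.10 and 1.16 over the 6298 IDs. The strongest case was TrE0669C, just before TrE0670C and singled out after its values were seen. It had 523 and 300.5 CPM in the parent and 444, 890 and 1003 CPM in the deletion strain in darkness, and 0 counts in the parent and 5 counts in the deletion strain in light. It missed the rule only because its dark mean in the deletion strain was 1.89 times that of the parent, and TrE0669C, TrE0670C and TrE0671C formed a row of 3 IDs that stayed under 3 CPM in every light library. TrE0421C, just before TrE0422C, had ratios of 0.528 in the parent and 0.0332 in the deletion strain.

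**Figure D5:**
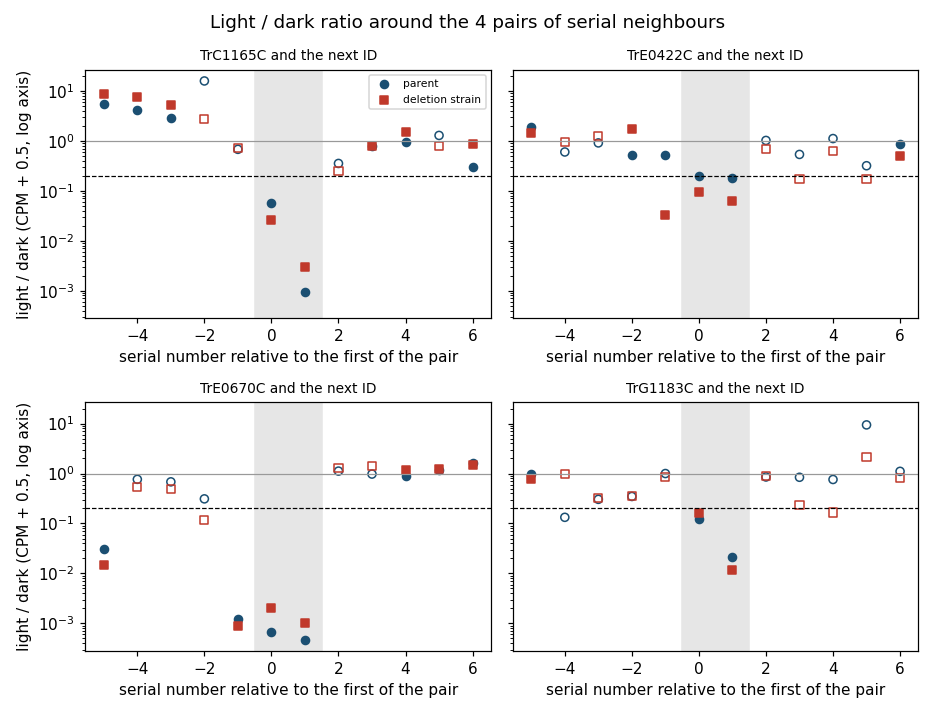
Ratio of light to dark mean level (CPM + 0.5, log axis) of the IDs from 5 before to 5 after each of the 4 pairs of serial neighbours (shaded), in the parent (blue circles) and the deletion strain (red squares); open symbols mark IDs under 10 CPM in darkness in either strain, and the dashed line is the limit of 0.2. Around TrE0670C the ID just before the pair lies as low as the pair, and the IDs after it lie near 1.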

How the data were processed

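The authors deposited raw counts per gene ID for 11 libraries, whole numbers with no normalization. Per the submitters' processing notes, HISAT2 2.2.1 was used, and per the labels' protocols libraries were stranded and depleted of ribosomal RNA. How strand and shared reads were counted is not given in the sources used here, so overlapping, antisense and near-identical genes are uncertain. None of the 10879 IDs matched the GCF_000167675.1 gene table (0 of 9116 genes), so lists of named genes were not tested and no sequence is shown.

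CPM used column totals. Filtering with filterByExpr in edgeR 4.0.16 (R 4.3.3) left 9040 IDs, all 57 genes among them. Counts were scaled by TMM and fitted over all 11 libraries with a mean per group by the quasi-likelihood method. P-values were adjusted by Benjamini-Hochberg over 9040 IDs at a threshold of 0.05. No label says that replicates were separate cultures, so the p-values reflect only how these libraries varied, possibly for technical reasons. The procedure was also run on simulated counts with a common spread for all IDs and known changes in the light libraries of the deletion strain. Only well-counted IDs were changed there, so the simulation does not cover genes with very few counts in light. Alternatives used DESeq2 1.42.0, voom in limma 3.58.1, other scalings and filters, a replicate block and omission of each library.

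The genes and lists were chosen with earlier results of these data known. Named IDs were the 2 with the highest dark CPM, the 2 deepest falls, up to 2 in each direction with the largest changes in each test, the 2 nearest each side of the ratio limit, the serial pairs and the widest dark spread. The other IDs named, among them the remaining called genes, were chosen after their values were seen. Intervals (95%, exact) and floors of 3 counts cover counting error only. A floor of 3 counts is 0.164 to 0.374 CPM in a single library.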

Additional observations from a re-analysis of the deposited data

Results flagged for a closer look

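The light response differed between the strains, by the interaction test in edgeR, for 3 of the 57 genes with a shallower fall in the deletion strain and for 2 with a deeper fall. The log2 interaction was 9.60 for TrA1904W (edgeR adjusted p = 0.0035), a fitted value that depends on the prior count because the parent in light had 0 counts. It was 2.11 for TrG0113W (edgeR adjusted p = 0.0117), with light levels higher in 3 of 3 deletion libraries than in any parent library. It was -4.43 for TrA0929W (edgeR adjusted p = 0.0147) and -2.60 for TrE0423C (edgeR adjusted p = 0.0387), with light levels lower in 3 of 3 deletion libraries than in any parent library. In groups of 2 or 3 libraries, no outlier test of single libraries was made, and each library was left out in turn instead.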

How the results depend on the processing

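The number of genes meeting the rule was 24 and 92 at ratio limits of 0.1 and 0.3, 25 when every library had to meet the limit, and 46 to 67 without a library in turn. With TMM-scaled totals it was 76, with 56 of the 57 genes kept. DESeq2 called 11 genes higher in the deletion strain in light and 6 with a shallower fall there. With voom, 3 were higher and 2 lower in light, and 0 had a shallower and 1 a deeper fall, where limma gave 5 shallower falls at an unadjusted p under 0.05. With only the 6 light libraries fitted, 2 were lower. Without a library in turn, 5 to 9 were higher and 3 to 7 lower in light, and 2 to 5 had a shallower and 0 to 5 a deeper fall. The 0 arose without parent replicate 1 in darkness, where edgeR gave 3 at an unadjusted p under 0.05. Other scalings and filters moved none of these numbers by over 1.5 times.

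Replicate numbers are shared between groups but not said to mark cultures, and same-numbered libraries of the strains in light deviated together at correlations of 0.16, 0.0040 and 0.16, so they were not treated as pairs. Of the 6 light libraries, 4 correlated best with their own number. With a replicate block, 6 genes were higher and 4 lower in light, and 3 had a shallower and 1 a deeper fall, and the TrE0423C interaction had an edgeR adjusted p of 0.0653. In light, 8020351 to 10184280 counts per library set a floor of about 0.3 CPM (0.295 to 0.374 CPM), which limits the comparison of strains for genes at or near 0.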
